A study of Mus musculus with 10 samples.

Results

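The acute phase protein genes Saa1, Saa2, Saa4, Orm1, Orm2, Hp, Hpx and Lcn2 and the metallothionein genes Mt1 and Mt2 were followed in 10 liver biopsies. They were chosen by name, and 8 of these 10 members have an entry among the 10913 genes of the deposited table. Orm2 and Lcn2 have no entry there and were not analysed here. The biopsies came from wild-type C57BL/6 mice after 12 weeks of western diet, and all of them were taken before any drug was given. The mice later received either obeticholic acid (OCA), an agonist of the bile acid receptor FXR, or vehicle. The groups are therefore classes assigned after the biopsy. They hold 3 later OCA responders, whose NAFLD activity score was at or below the cutoff of the study at the end of treatment, 4 later OCA non-responders and 3 mice of the later vehicle group. All 10 mice shared strain, genotype and diet, and no biopsy of a mouse on another diet is included. Each biopsy is a small piece of liver taken through an abdominal incision under anaesthesia, and each group number in the sample titles stands for a separate mouse.

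The acute phase response is the change in plasma protein production by hepatocytes during infection, tissue injury or inflammation, driven mainly by interleukin-6 and interleukin-1 through STAT3, NF-kappaB and C/EBP factors. Serum amyloid A proteins are among its strongest products in the mouse, while orosomucoid, haptoglobin and hemopexin change less. Metallothioneins are small cysteine-rich proteins that bind zinc and copper, and their genes respond to metals through the factor MTF-1 and metal response elements, as well as to glucocorticoids and inflammation.

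Sequences are shown for Saa1, Saa2, Mt1 and Mt2 because the neighbouring pairs Saa1 and Saa2, and Mt1 and Mt2, are set side by side below. RefSeq promoter sequences on build GRCm38.p6 were given for 6 of the 8 measured members. Saa1 (chr7:46740497-46742980, minus strand) and Saa2 (chr7:46751790-46754313, plus strand) are protein-coding genes that start facing away from each other with 8809 bases between them. The 250 bases before each start (chr7:46742981-46743230, minus strand, for Saa1 and chr7:46751583-46751832, plus strand, for Saa2) are printed 5′ to 3′, and capitals mark matches to the C/EBP motif TTGCNNAA on either strand.
Saa1: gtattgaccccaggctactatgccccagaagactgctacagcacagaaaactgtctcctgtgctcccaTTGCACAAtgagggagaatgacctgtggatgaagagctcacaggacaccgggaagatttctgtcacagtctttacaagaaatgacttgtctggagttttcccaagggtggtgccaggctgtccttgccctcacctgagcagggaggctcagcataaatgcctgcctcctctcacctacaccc
Saa2: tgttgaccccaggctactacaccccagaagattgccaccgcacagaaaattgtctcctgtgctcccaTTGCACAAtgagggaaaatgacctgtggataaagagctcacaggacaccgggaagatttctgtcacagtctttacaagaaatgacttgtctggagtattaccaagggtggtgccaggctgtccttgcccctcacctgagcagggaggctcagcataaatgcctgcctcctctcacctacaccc
In a global alignment 238 of the 250 bases (95.2%) were identical. Each window held 1 match to TTGCNNAA, as did that of Hpx, and Saa4 held 2. The motif was present in 9.56% of the 32851 windows of the same length. None of these 4 windows held the STAT motif TTCNNNGAA, searched on both strands, which 7.02% of windows hold. A match is a stretch of letters and not a bound site.

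Mt2 (chr8:94172664-94173568) and Mt1 (chr8:94179082-94180327) are protein-coding genes that lie on the plus strand of chromosome 8 with 5513 bases between them. Matches to the metal response element, written TGCACNC or TGCGCNC on either strand, were counted in the 250 bases before the RefSeq start. Mt2 had 3 matches and Mt1 had 1, and 21.4% of the 32851 windows had at least 1. The Mt2 window also held 1 match to TTGCNNAA and the Mt1 window none. Further matches lie just after the annotated start. In the first 200 bases of 1 protein-coding GENCODE transcript per gene there were 4 matches in Mt1 and 3 in Mt2, and 0.133% and 0.812% of 21801 genes had at least as many. The 30 bases with most matches in each gene are printed with the matches in capitals, at chr8:94179086-94179115 for Mt1 and chr8:94172672-94172701 for Mt2.
Mt1: agctcTGCACTCcgcccgaaaagTGCGCTC
Mt2: gggcGTGTGCAggcggcgggggcGCGTGCA
The next annotated start lies 129 bases downstream in Mt1 and 196 bases downstream in Mt2, so these matches stand before or after the start depending on the transcript.

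Counts over all listed genes were 40432530 to 76529328 per biopsy, and a measured member had at least 93 counts in every biopsy. Levels are given in CPM, the count scaled to library size with trimmed mean of M values (TMM) factors over the 10 biopsies. FPKM values, which are scaled to transcript length and depth, are used where genes are compared with each other. Rn45s, the ribosomal RNA precursor, took 21.6% ± 4.79 of the counts in responders (SD, n = 3), 15.4% ± 5.52 in non-responders (SD, n = 4) and 5.72% ± 1.75 in the vehicle group (SD, n = 3). All 8 hepatocyte markers were measured. None of 11 neutrophil and none of 4 adipocyte markers has an entry in the table, which lists only genes with at least 1 count in all 10 biopsies. In bulk tissue, fewer cells of a type and less RNA per cell cannot be told apart. P-values measure only the spread between these mice.

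**Figure D1:**
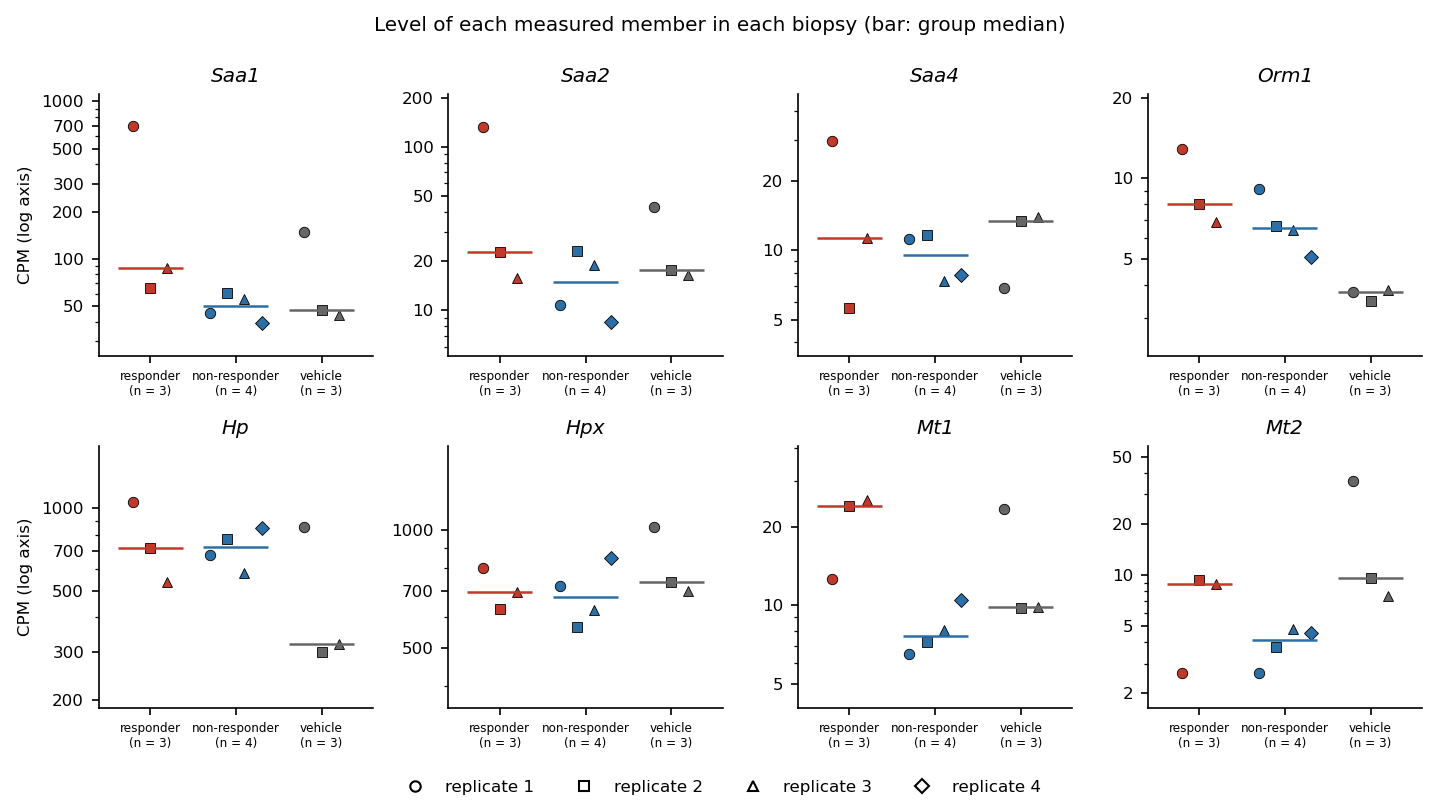
CPM (log axis) of the 8 measured members in each biopsy, with 1 point per mouse, a marker shape per replicate number and a bar at the group median, for responders (n = 3), non-responders (n = 4) and the vehicle group (n = 3). Responder 1 lies far above the rest for Saa1 (694 CPM) and Saa2 (131 CPM), and vehicle 1 for Mt2 (36.0 CPM).

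Single biopsies carried most of the signal of Saa1 and Saa2. Responder 1 was the highest of the 10 biopsies for 5 of the 6 measured acute phase members, Saa1, Saa2, Saa4, Orm1 and Hp, by CPM. Vehicle 1 was the highest for Hpx and Mt2 and the second highest for Saa1, Saa2 and Hp. By FPKM responder 1 was the highest for 4 members and vehicle 1 for 4, since Hp and Mt1 were then highest in vehicle 1. Among all 9978 genes with a mean of at least 1 CPM, responder 1 was the highest biopsy for 16.2% and vehicle 1 for 12.2%. Being highest was a small step for some members. The ratio of highest to median biopsy was 1.98 for Orm1, 1.51 for Hp and 1.43 for Hpx, exceeded by 13.5%, 45.3% and 55.5% of these genes.

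Saa1, which encodes the main inducible serum amyloid A of mouse liver, had the widest spread. Its level was 694, 65.6 and 88.1 CPM in responder biopsies 1 to 3, 45.4, 61.0, 55.5 and 39.1 CPM in non-responder biopsies 1 to 4, and 149, 47.6 and 43.9 CPM in vehicle biopsies 1 to 3. Responder 1 stood apart from every other biopsy, vehicle 1 came next, and the other 8 biopsies lay between 39.1 and 88.1 CPM. The level in responder 1 was 4.65 times that in vehicle 1 and 11.9 times the median of the 10 biopsies. Only 0.241% of the 9978 genes had a larger ratio of highest to median biopsy, and the median gene had a ratio of 1.47. By FPKM Saa1 ranked number 39 of 10913 genes in responder 1, number 187 in vehicle 1 and between 397 and 846 in the other biopsies.

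Saa2, its neighbour and near copy, followed the same order at the top. Its level was 131, 22.7 and 15.8 CPM in responders, 10.8, 23.0, 19.0 and 8.47 CPM in non-responders, and 42.8, 17.7 and 16.5 CPM in the vehicle group. Responder 1 and vehicle 1 were again the highest biopsies, and the groups overlapped among the other 8. The ratio of highest to median biopsy was 7.17, exceeded by 0.421% of genes. Of the distinct 50-base windows in Saa1 transcripts, 14.8% also occur in Saa2 or Saa3 transcripts, and 11.8% of the Saa2 windows occur in Saa1, so reads from these stretches could have been counted for either gene. The Saa1 to Saa2 ratio in FPKM was between 2.66 and 5.60 in all 10 biopsies.

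Saa4 encodes a serum amyloid A that is made constitutively and is less inducible. It was measured at 29.6, 5.60 and 11.3 CPM in responders, 11.2, 11.6, 7.35 and 7.84 CPM in non-responders, and 6.88, 13.4 and 14.0 CPM in the vehicle group. Responder 1 was the highest biopsy here too, but responder 2 was the lowest and vehicle 1 was below both other vehicle biopsies. The ratio of highest to median biopsy was 2.63, exceeded by 4.44% of genes.

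Orm1, which encodes the plasma carrier protein orosomucoid 1, separated the later OCA mice from the vehicle group by its level. Its level was 12.9, 8.01 and 6.86 CPM in responders, 9.13, 6.61, 6.42 and 5.06 CPM in non-responders, and 3.75, 3.48 and 3.82 CPM in the vehicle group. All 7 biopsies of later OCA mice lay above all 3 vehicle biopsies, and the vehicle biopsies lay within 3.48 to 3.82 CPM. The responder and non-responder ranges overlapped. Orm1 shares 20.4% of its 50-base windows with Orm2 or Orm3, so its count may include reads of these copies. Orm3 was listed at 0.711 CPM or less in every biopsy.

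Hp and Hpx encode haptoglobin and hemopexin, the plasma proteins that bind free haemoglobin and haem. They were the most abundant members per length in 9 of the 10 biopsies, with Hp at 242 to 688 FPKM and Hpx at 369 to 741 FPKM over all 10, and only in responder 1 was Saa1 above them (939 FPKM). Hp was measured at 1050.4, 715 and 537 CPM in responders, 678, 771, 581 and 847 CPM in non-responders, and 856, 299.7 and 319.6 CPM in the vehicle group. Vehicle 2 and vehicle 3 were the lowest biopsies, while vehicle 1 was within the range of the later OCA mice.

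Hpx was the steadiest member. It was measured at 801, 627 and 696 CPM in responders, 720.3, 565, 627 and 848 CPM in non-responders, and 1016, 736 and 699 CPM in the vehicle group. The groups overlapped, and the highest and lowest biopsies differed by a factor of 1.80. A wider range was seen in 78.0% of the 9978 genes.

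**Figure D2:**
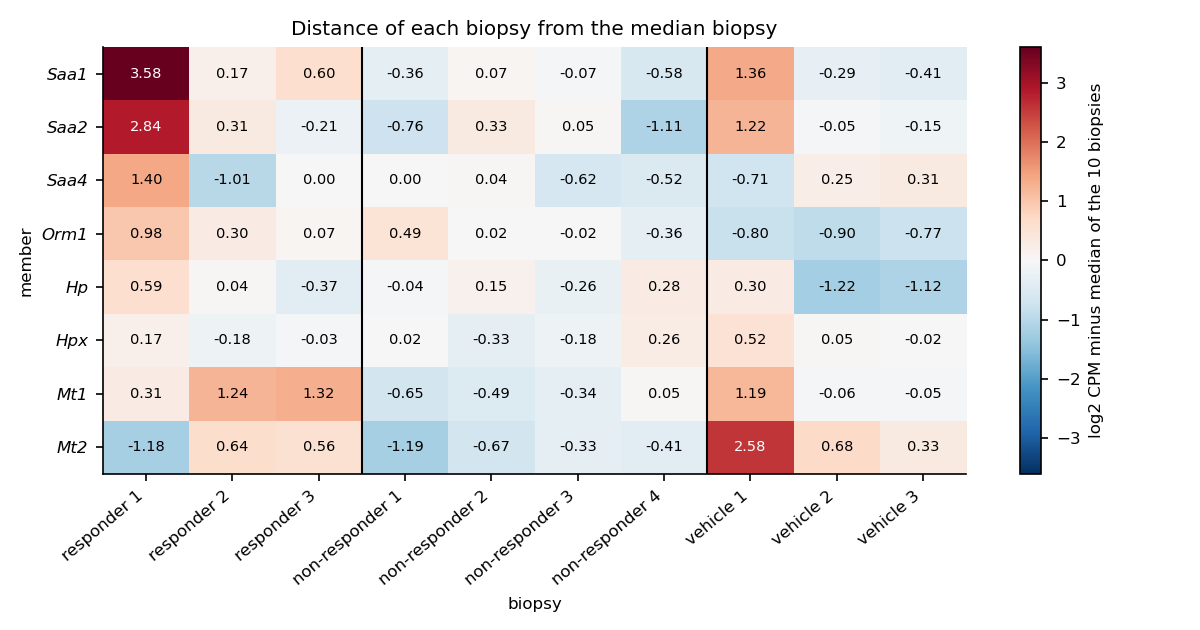
Log2 CPM of each measured member (rows) in each biopsy (columns, responders, non-responders and vehicle group) minus the median of the 10 biopsies, with the value written in each cell. Responder 1 is 3.58 above the median for Saa1 and 1.18 below it for Mt2, while vehicle 1 is 1.36 above it for Saa1 and 2.58 above it for Mt2.

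The metallothioneins were not highest in responder 1. The biopsies with the most Mt1, responder 2, responder 3 and vehicle 1, came next after responder 1 for Saa1. Mt1 was measured at 12.6, 23.9 and 25.4 CPM in responders, 6.48, 7.24, 8.03 and 10.5 CPM in non-responders, and 23.3, 9.75 and 9.85 CPM in the vehicle group. Responder 2, responder 3 and vehicle 1 formed the upper level, and every responder lay above every non-responder. The mean was 20.6 ± 7.01 CPM in responders (SD, n = 3), 8.06 ± 1.74 CPM in non-responders (SD, n = 4) and 14.3 ± 7.77 CPM in the vehicle group (SD, n = 3).

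Mt2 was measured at 2.65, 9.40 and 8.84 CPM in responders, 2.63, 3.78, 4.79 and 4.54 CPM in non-responders, and 36.0, 9.66 and 7.55 CPM in the vehicle group. Vehicle 1 stood apart from the rest, at 5.83 times the median biopsy, a ratio that 0.491% of genes exceeded. Responder 1, the biopsy with the most Saa1, had nearly the least Mt2. All 4 non-responders lay below all 3 vehicle biopsies.

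For responders against non-responders, which asks whether livers already differed before OCA by the later response, no member passed an adjusted p of 0.05 in edgeR's quasi-likelihood test, and 0% of the 10826 genes tested did. At an unadjusted p under 0.05 there were 3 members, Saa1, Saa2 and Mt1, all higher in responders, beside 7.74% of genes in that direction. DESeq2 called 1 member, Mt1, among 273 genes called of the 10826 tested, and limma on log2 values called none. All 8 members had a positive log2 fold change, with a median of 0.77 against -0.01 for all genes tested. The groups did not overlap for 2 members, Saa1 and Mt1, both higher in responders, beside 7.65% of all genes in that direction. Whether 2 of 8 members differs from that share was not tested.

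Saa1 averaged 283 ± 357 CPM in responders (SD, n = 3) and 50.2 ± 9.90 CPM in non-responders (SD, n = 4). The log2 fold change was 2.49 ± 0.69 (SE, edgeR adjusted p = 0.219). Without responder 1 it was 0.62 (edgeR adjusted p = 0.309), and over the alternatives the adjusted p of Saa1 was 0.160 to 0.513. Mt1 had a log2 fold change of 1.36 ± 0.29 (SE, edgeR adjusted p = 0.186), and it stayed between 1.18 and 1.62 when each biopsy was left out in turn. DESeq2 gave the same Mt1 fold change of 1.36 with an adjusted p of 0.00179, and over the 18 alternatives the adjusted p of Mt1 was between 0.00179 and 0.488. For both genes the exact two-sided permutation test gave p = 0.0571, the smallest possible with 3 mice against 4.

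None of the other members separated the groups. Saa2 had a log2 fold change of 1.88 ± 0.66 (SE, edgeR adjusted p = 0.267), which was 0.33 at its lowest when 1 biopsy was left out, that biopsy being responder 1. Mt2 had a log2 fold change of 0.83 ± 0.43 (SE, edgeR adjusted p = 0.426). Saa4 and Orm1 had log2 fold changes of 0.70 and 0.44, and that of Saa4 turned to -0.16 without responder 1. Hp and Hpx had log2 fold changes of 0.09 and 0.04, and their sign depended on the scaling.

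**Figure D3:**
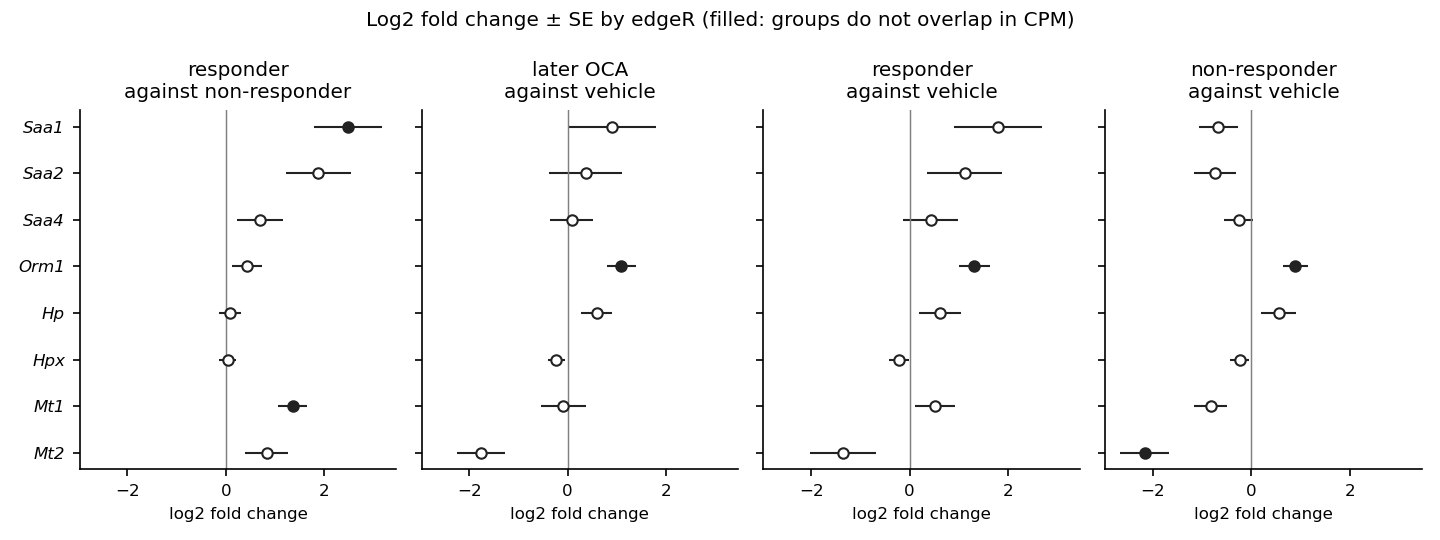
Log2 fold change of each measured member with its SE (bars) by edgeR in the 4 comparisons, with filled points where the groups do not overlap in CPM. Saa1 (2.49) and Mt1 (1.36) lie to the right for responders against non-responders, Orm1 lies to the right in all 3 comparisons with the vehicle group, and Mt2 lies to the left in them.

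For later OCA mice against the vehicle group, which compares 2 sets of mice on the same diet before either agent was given, no member passed an adjusted p of 0.05 in edgeR, against 1.19% of the 10844 genes tested. At an unadjusted p under 0.05 Orm1 was higher, as were 10.6% of genes, and Mt2 was lower, as were 8.61%. DESeq2 called these 2 members, among 665 genes called of the 10844 tested, and limma called none. A fit with 1 spread for all 3 groups called Orm1, among 475 genes called. The groups did not overlap for 1 member, Orm1, higher in later OCA mice, and 5.51% of genes did not overlap in that direction. The median log2 fold change of the members was 0.22, with 5 positive and 3 negative.

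Orm1 averaged 7.85 ± 2.56 CPM in later OCA mice (SD, n = 7) and 3.68 ± 0.179 CPM in the vehicle group (SD, n = 3). The log2 fold change was 1.09 ± 0.29 (SE, edgeR adjusted p = 0.0811), and it was higher in 7 of 7 biopsies. The exact permutation test gave p = 0.0167, the smallest that 7 mice against 3 allow. The fold change stayed between 0.95 and 1.19 with each biopsy left out, and the adjusted p over the 21 alternatives was between 0.00605 and 0.706. The lowest came from DESeq2 and the highest from a fit that held the Rn45s share (log2) as covariate, where the log2 fold change was 0.98 ± 0.58 (SE). With Rn45s left out of the counts the Orm1 log2 fold change was 1.11.

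Mt2 averaged 5.23 ± 2.79 CPM in later OCA mice (SD, n = 7) and 17.7 ± 15.8 CPM in the vehicle group (SD, n = 3). The log2 fold change was -1.76 ± 0.49 (SE, edgeR adjusted p = 0.0869). Without vehicle 1 it was -0.72 (edgeR adjusted p = 0.419), and over the alternatives the adjusted p of Mt2 was 0.0106 to 0.633, lowest in DESeq2. Hp had a log2 fold change of 0.59 ± 0.31 (SE, edgeR adjusted p = 0.324), which was 1.26 without vehicle 1. Saa1 had a log2 fold change of 0.90 ± 0.89 (SE, edgeR adjusted p = 0.622) and became -0.43 without responder 1. Library totals without further scaling moved the median log2 fold change of all genes by -0.25 in this comparison, and the fold changes given here are relative to the scaled counts.

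The comparisons of responders and of non-responders with the vehicle group share the same 3 vehicle biopsies, and their values are therefore given side by side. No member passed an adjusted p of 0.05 in edgeR for responders against vehicle (4.52% of 10785 genes did) or for non-responders against vehicle (0.0462% of 10832 genes did). At an unadjusted p under 0.05, Orm1 was higher in responders, as were 12.9% of genes. Orm1 was also higher in non-responders (8.24% of genes), and Mt1 and Mt2 were lower (6.36% of genes). DESeq2 called Orm1 for responders, among 1548 genes called, and Orm1 and Mt2 for non-responders, among 382 genes called. Limma called Orm1 for responders on the quantile-normalized values, among 726 genes called, and no member for non-responders.

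Orm1 had a log2 fold change of 1.32 ± 0.31 (SE, edgeR adjusted p = 0.0516) in responders against vehicle. In non-responders against vehicle it was 0.89 ± 0.26 (SE, edgeR adjusted p = 0.191). Neither group overlapped with the vehicle group, as was seen for 16.3% and 8.76% of genes in the same direction. Mt2 had a log2 fold change of -1.36 ± 0.67 (SE, edgeR adjusted p = 0.238) in responders and -2.17 ± 0.50 (SE, edgeR adjusted p = 0.138) in non-responders. The non-responders lay wholly below the vehicle group for Mt2, as did 7.64% of genes, and without vehicle 1 the value was -1.12 (edgeR adjusted p = 0.179, and 0.00108 to 0.484 over the alternatives).

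Hp had a log2 fold change of 0.63 ± 0.43 (SE, edgeR adjusted p = 0.389) in responders against vehicle, which became 1.30 with an edgeR adjusted p of 0.0375 without vehicle 1, the lowest value of the 0.0375 to 0.997 over its alternatives. Saa1 had a log2 fold change of 1.80 ± 0.89 (SE, edgeR adjusted p = 0.242) in responders, and -0.073 without responder 1. In non-responders its value was -0.67 ± 0.40 (SE, edgeR adjusted p = 0.463), and 0.14 without vehicle 1. Mt1 had log2 fold changes of 0.52 in responders and -0.82 in non-responders against vehicle.

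Ratios between members within a biopsy do not depend on the scaling of the libraries. The Mt1 to Mt2 ratio in FPKM was 4.89, 2.61 and 2.94 in responders, 2.53, 1.97, 1.72 and 2.37 in non-responders, and 0.663, 1.04 and 1.34 in the vehicle group. The 3 groups did not overlap in this ratio, with responders highest and the vehicle group lowest. The log2 difference between later OCA mice and the vehicle group was 1.41 (exact permutation test, two-sided p = 0.0167, adjusted p = 0.152 over 16 ratio tests). Between responders and non-responders it was 0.66 (exact permutation test, two-sided p = 0.0571, adjusted p = 0.152).

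The Hp to Hpx ratio was 1.45, 1.26 and 0.853 in responders, 1.04, 1.51, 1.02 and 1.10 in non-responders, and 0.929, 0.450 and 0.505 in the vehicle group. Vehicle 2 and vehicle 3 lay below the other 8 biopsies. The log2 difference between later OCA mice and the vehicle group was 0.96 (exact permutation test, two-sided p = 0.0333, adjusted p = 0.152). None of the 16 ratio tests passed the adjustment.

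**Figure D4:**
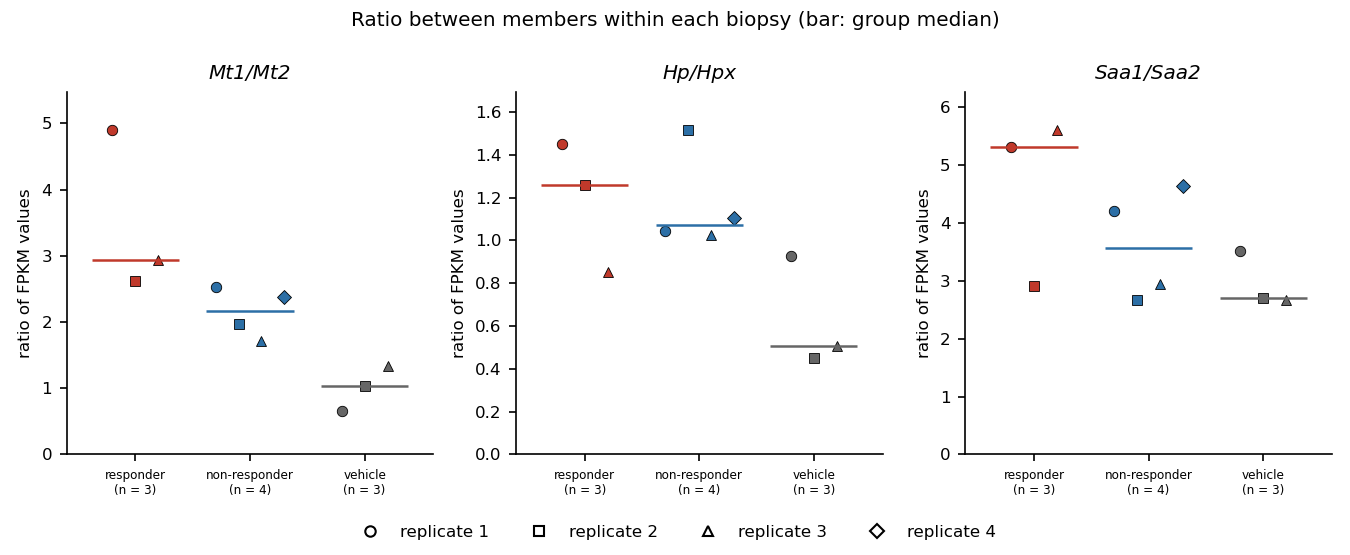
Ratio of FPKM values between members within each biopsy for Mt1 to Mt2, Hp to Hpx and Saa1 to Saa2, with 1 point per mouse and a bar at the group median. The Mt1 to Mt2 ratio is 2.61 to 4.89 in responders, 1.72 to 2.53 in non-responders and 0.663 to 1.34 in the vehicle group.

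Pairs of members were compared across the 10 biopsies on log2 CPM, 28 pairs in all. Saa1 and Saa2 had a Pearson r of 0.94 (permutation p = 0.00060, adjusted p = 0.0168) and a Spearman rho of 0.78 (permutation p = 0.0107, adjusted p = 0.300). Without responder 1 and vehicle 1, the 2 biopsies farthest from the median Saa1 level, r was 0.57, so the relation rests largely on them. No other pair passed the adjustment.

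Mt1 and Mt2 had a Pearson r of 0.68 (permutation p = 0.0252, adjusted p = 0.258) and a Spearman rho of 0.55 (permutation p = 0.106, adjusted p = 0.787). After the group means were taken off, r was 0.96, and without responder 2 and responder 3, the biopsies farthest in Mt1, it was 0.77. Orm1 and Mt2 had a Pearson r of -0.68 (permutation p = 0.0276, adjusted p = 0.258) and a Spearman rho of -0.66 (permutation p = 0.0427, adjusted p = 0.598). Saa1 and Mt1 had an r of 0.35 and Saa1 and Mt2 of -0.03, each with an adjusted permutation p of 0.599 or more. Without responder 1 and vehicle 1 these r values were 0.67 and 0.38.

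**Figure D5:**
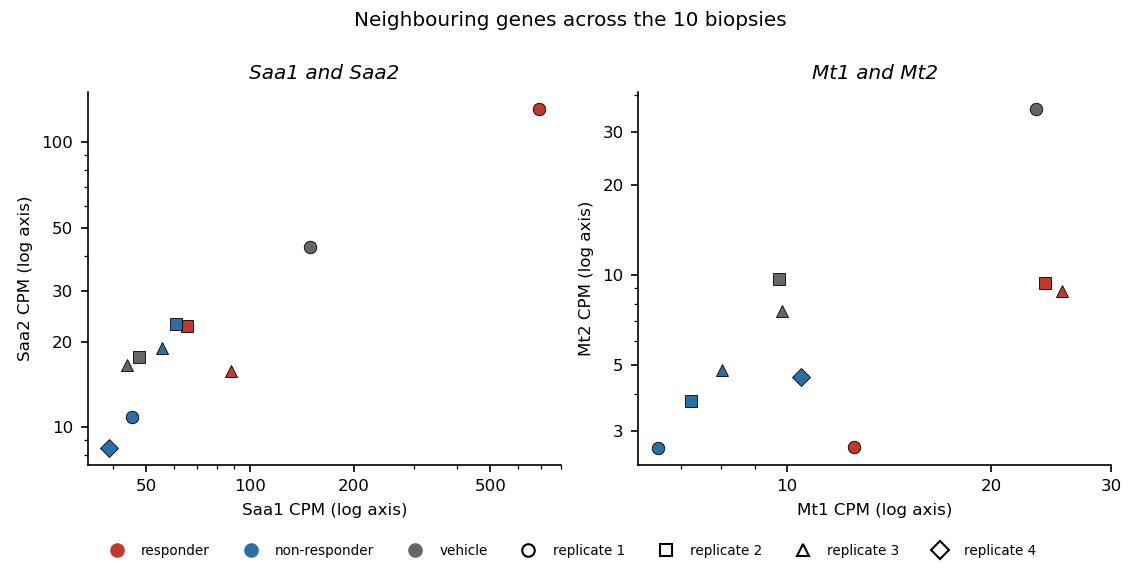
CPM of Saa2 against Saa1 and of Mt2 against Mt1 in the 10 biopsies (log axes), coloured by group with a marker shape per replicate number. Responder 1 and vehicle 1 lie at the top right for the Saa genes, and for the metallothioneins vehicle 1 lies above responder 2 and responder 3 at a like Mt1 level.

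Other genes listed as acute phase proteins that rise in inflammation were less uniform. How far each of them rises in mouse liver was not tested. Of 23 measured, 11 were highest in responder 1 and 5 in vehicle 1. Fgl1, a hepatocyte-secreted fibrinogen-like protein, was measured at 196, 39.7 and 48.7 CPM in responders, 48.0, 36.5, 40.5 and 57.3 CPM in non-responders, and 104, 43.8 and 32.2 CPM in the vehicle group. Its 2 highest biopsies were those of Saa1. For responders against non-responders none of the 23 passed and none had an unadjusted p under 0.05 in edgeR, with a median log2 fold change of -0.01, as for all genes.

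In later OCA mice against the vehicle group, 2 of the 23 were called higher and none lower, beside 0.848% and 0.341% of all genes. Crp, C-reactive protein, averaged 8.65 ± 2.06 CPM in later OCA mice (SD, n = 7) and 3.29 ± 0.681 CPM in the vehicle group (SD, n = 3), with a log2 fold change of 1.40 ± 0.27 (SE, edgeR adjusted p = 0.0350). Serpina3m, a serine protease inhibitor, had a log2 fold change of 1.25 ± 0.26 (SE, edgeR adjusted p = 0.0366). The median of the list was 0.02 against 0.00 for all genes. No gene of the whole table was called with the Rn45s share as covariate, and 1 gene was called without vehicle 2 or without vehicle 3. Serpina3n and Pzp had log2 fold changes of 1.29 and 0.73 and missed the threshold. For both, every later OCA biopsy was above every vehicle biopsy, as for 5.51% of all genes.

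Plasma proteins that are made less in the acute phase were measured for all 11 listed genes. In later OCA mice against the vehicle group, 3 were called higher and none lower, beside 0.848% and 0.341% of all genes. The list's median log2 fold change was 0.59. Ahsg and Fetub, the fetuins, had log2 fold changes of 1.08 (edgeR adjusted p = 0.0280) and 1.44 (edgeR adjusted p = 0.0499). Apoa2, an apolipoprotein of high density lipoprotein, had a log2 fold change of 1.36 (edgeR adjusted p = 0.0350). For responders against non-responders none passed, and 2 had an unadjusted p under 0.05 in edgeR, Ttr and Trf, at log2 fold changes of -0.52 and -0.43, beside 6.13% of all genes in that direction. Responder 1 held the lowest Ttr level of all biopsies, 193 CPM against 299 CPM and 364 CPM in the other responders. For the list as a whole the answer depended on the measure. Its summed level was lowest in responder 1, at 5604 CPM against 6827 to 9636 CPM in the other biopsies. Its median log2 distance from the median of the 10 biopsies was not lowest there. That distance was -0.29 in responder 1 and -0.44, -0.29 and -0.53 in vehicle biopsies 1 to 3.

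Genes of interleukin-6 and interleukin-1 signalling gave 0 calls of 25 for responders against non-responders in edgeR. There were 3 unadjusted p-values under 0.05, all for lower levels, beside 6.13% of all genes in that direction. The list itself was not lower, with 14 positive and 11 negative log2 fold changes and a median of 0.14 against -0.01 for all genes. Its genes summed to 1199 to 1230 CPM in responders, 976 to 1122 CPM in non-responders and 984 to 1317 CPM in the vehicle group. Myd88, the adaptor of the interleukin-1 receptor, was measured at 5.12, 4.25 and 3.17 CPM in responders and 7.32 to 8.80 CPM in non-responders, with a log2 fold change of -0.98 (edgeR adjusted p = 0.213). In later OCA mice against vehicle only Cebpb, the gene of C/EBP beta, passed, at a log2 fold change of -3.99 (edgeR adjusted p = 0.0356). That value rests on vehicle 3 at 321 CPM, since the other 9 biopsies lay between 4.94 and 9.53 CPM. Cebpd was 4.01 to 9.30 CPM in later OCA mice and 2.38 to 3.78 CPM in the vehicle group (edgeR adjusted p = 0.0789).

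None of 18 measured zinc transport and sensing genes passed in either main comparison in edgeR. In responders against non-responders 2 had unadjusted p-values under 0.05, both lower, beside 6.13% of all genes, and 13 of 18 were negative with a median log2 fold change of -0.23. Mtf1, the zinc sensor that acts on metal response elements, was 34.4, 26.2 and 19.8 CPM in responders and 35.0 to 60.2 CPM in non-responders, with a log2 fold change of -0.70 (edgeR adjusted p = 0.274). Slc39a8, a zinc importer, had a log2 fold change of -1.52 (edgeR adjusted p = 0.313). In later OCA mice against vehicle 4 had unadjusted p-values under 0.05, all lower, beside 8.61% of all genes, among them Slc30a6 and Slc30a4, zinc exporters to intracellular compartments, at -1.26 and -1.61.

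Glucocorticoid response genes were mostly higher in responders without a call. Of 15 measured, 13 had a positive log2 fold change for responders against non-responders, with a median of 0.54 against -0.01 for all genes, and 5 were higher at an unadjusted p under 0.05 in edgeR, beside 7.74% of all genes. Pck1, an enzyme of gluconeogenesis, was 3799 to 4703 CPM in responders and 1737 to 3560.2 CPM in non-responders (edgeR adjusted p = 0.283). Per1, a clock gene that glucocorticoids induce, was 145, 211 and 258 CPM in responders and 41.4 to 148 CPM in non-responders (edgeR adjusted p = 0.307). For later OCA mice against vehicle 2 of 15 were higher at an unadjusted p under 0.05, beside 10.6% of all genes, and none passed.

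Genes that clear haem and store iron gave no call of 8 in either comparison in edgeR, with 3 unadjusted p-values under 0.05 for responders against non-responders, all lower, beside 6.13% of all genes, and 1 for later OCA mice against vehicle, also lower, beside 8.61%. Slc40a1, the iron exporter ferroportin, had a log2 fold change of -0.75 ± 0.20 (SE, edgeR adjusted p = 0.213) for responders against non-responders. Hba-a2, a haemoglobin gene of red blood cells, stood at 152 CPM in non-responder 4 and 64.9 CPM in responder 3, and at 0.818 CPM or less in the other 8 biopsies. Neither was the highest biopsy for Hp or Hpx, although non-responder 4 came second for Hpx.

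The genes whose pattern over the 10 biopsies was most like the mean standardized log2 CPM of the 6 measured acute phase members were Fam124a, Tnk2, Fgl1, Rcor1 and Tuft1, with Pearson r values of 0.95, 0.94, 0.93, 0.93 and 0.92. Without the 2 biopsies farthest from the median of that mean, r was 0.80, 0.37, 0.45, 0.79 and 0.67. Tuft1 was 190.9 CPM in responder 1 and 18.5 to 46.1 CPM in the other 9 biopsies. For the metallothioneins the nearest genes were Cpeb2, Sbf2, Myof, Cdk17 and Wsb2, with r values of 0.93, 0.92, 0.91, 0.91 and 0.91, and between 0.75 and 0.90 without the 2 farthest biopsies. Cpeb2 was 113.5, 98.5 and 194 CPM in responder 2, responder 3 and vehicle 1, and 44.1 to 66.4 CPM in the other 7. These values describe 10 biopsies and carry no test, since the genes were picked for them.

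The Rn45s share was higher in all 7 later OCA biopsies than in the vehicle group (log2 difference 1.65, exact permutation test, two-sided p = 0.0167), which is also the split of Orm1. Over the 10 biopsies Orm1 had a Pearson r of 0.71 with the Rn45s share on the log2 scale (permutation p = 0.0218, adjusted p = 0.174 over 8 members) and a Spearman rho of 0.59 (permutation p = 0.0798, adjusted p = 0.639). Without the 2 farthest biopsies r was 0.53, and within groups it was -0.35. The 8 hepatocyte markers summed to 20445 to 22342 CPM in responders, 12158 to 25782 CPM in non-responders and 15770 to 21335 CPM in the vehicle group. The 7 measured of 11 Kupffer cell and macrophage markers summed to 86.3 to 136 CPM in responders, 112 to 134 CPM in non-responders and 101 to 146 CPM in the vehicle group. The 3 measured of 6 cholangiocyte markers, Krt19, Sox9 and Spp1, summed to 21.3 to 27.8 CPM in responders, 25.4 to 49.5 CPM in non-responders and 38.1 to 46.3 CPM in the vehicle group. All 3 markers had negative log2 fold changes in responders against non-responders (median -0.79, none called) and against the vehicle group. Of these, 1 was called lower against the vehicle group, as was 1 of 7 stellate cell markers. In that comparison 4.52% of all genes were called in either direction. The 7 stellate cell markers summed to 826 to 1024 CPM in responders, 701 to 1231 CPM in non-responders and 961 to 1284 CPM in the vehicle group, and the 7 sinusoidal endothelial markers to 225 to 299.7 CPM, 228 to 342 CPM and 215 to 287 CPM in the same groups. The part of these measures in the members' differences was not tested beyond the fits with the Rn45s share.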

How the data were processed

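Livers of 10 mice were biopsied after 12 weeks of western diet, and RNA was sequenced by the study's provider. Per the labels, reads were checked with FastQC 0.11.7, trimmed with Trimmomatic 0.38 and mapped with HISAT2 2.1.0 to mm10, and the study's methods name StringTie for abundance. The labels name both a stranded TruSeq kit and a SMARTER kit. Not given in the sources used here are the strand setting and the making of the whole counts. The authors deposited 1 table with read counts per gene, FPKM values from StringTie, and log2 values of FPKM + 1 after quantile normalization. It holds only genes with at least 1 count in every biopsy, so a gene without an entry may have been 0 in a single biopsy. Its columns of the authors' own comparisons, fold changes and p-values, were not used, and every per-sample column was mapped to a title.

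Deposited counts were tested with edgeR 4.0.16 (quasi-likelihood test, TMM scaling, filterByExpr with a minimum count of 10 and a total of 15, Benjamini-Hochberg over all genes tested, threshold 0.05) in R 4.3.3, with only the compared groups in each fit and no covariate. The SE is the log2 fold change divided by the root of the F statistic. CPM were scaled by TMM over all 10 biopsies, and log2 CPM had a prior count of 2. Single values were compared by exact two-sided permutation of log2 values (scipy 1.17.1, Python 3.11.15), and pairs of members by 100000 permutations. Alternatives were DESeq2 1.42.0, limma 3.58.1 on the deposited log2 values and on log2(FPKM + 0.1), other scalings and filters, 1 spread for all groups, a replicate block, the Rn45s share as covariate, and each biopsy left out. The edgeR procedure was tested on simulated counts. Gene positions and transcripts came from GENCODE M21 (GRCm38, the build of mm10), and promoters from RefSeq on GRCm38.p6, matched by symbol. Promoters were aligned with Biopython 1.88.

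The members and the gene and marker lists were chosen with earlier results of these data known. Beside the members, the text names up to 4 measured genes of each list with the smallest p in either of the first 2 comparisons, the 5 genes most like each member group, Rn45s, and markers beside a result. Orm3, named for the reads it can share, belongs to a list but was named outside this rule, as was Hba-a2 for its level. No 2 biopsies of the same group were repeats of 1 library: the median chi-square per gene between biopsies of a group was 9.13 to 33.5, against 0.455 from counting alone. Pairs of biopsies from different groups were not checked. Total counts were 40432530 to 76529328 per biopsy, and the lowest count of a measured member was 93, so counting error is part of the spread for members with low counts.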

Additional observations from a re-analysis of the deposited data

How the results depend on the processing

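No member was called by edgeR in the 4 comparisons, and this held with other scaling factors, without a filter and with Rn45s left out of the counts. DESeq2 called 1 member for responders against non-responders and 2 for later OCA mice against vehicle. Set against the vehicle group it called 1 member for responders and 2 for non-responders. For later OCA mice against vehicle 1 member, Orm1, was called with 1 spread over all groups, and for responders against vehicle 1 member, Orm1, was called with that spread, with at least 50 counts required and by limma on the quantile-normalized values. With each biopsy left out, 0 to 1 members were called for responders against vehicle and 0 in the other comparisons, the 1 being Hp without vehicle 1.

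Counts of genes over the whole table moved more. For responders against non-responders they were 0 in edgeR, 273 in DESeq2 and 0 to 1 with each biopsy left out. For later OCA mice against vehicle they numbered 129 in edgeR, 665 in DESeq2, 214 with at least 50 counts, 259 by limma on quantile-normalized values, 11 by limma with a pseudocount of 0.1, 475 with 1 spread, 0 with the Rn45s covariate, and 1 to 158 with each biopsy left out. The count was 1 without vehicle 2 or vehicle 3, 9 without responder 3 or non-responder 3, and 20 without responder 2 or vehicle 1. For responders against vehicle they were 488 in edgeR, 1548 in DESeq2, 1673 with library totals only, 1545 by limma with a pseudocount of 0.1, 928 with 1 spread, 0 with the Rn45s covariate, and 0 (without vehicle 3) to 848 (without vehicle 1). For non-responders against vehicle they were 5 in edgeR, 382 in DESeq2, 9 with at least 50 counts, 16 by limma on quantile-normalized values, 11 with 1 spread, 0 with the Rn45s covariate, and 2 to 8 with each biopsy left out. The causes were not tested.

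The replicate number of the titles was also fitted as a replicate block. Same-numbered biopsies of different groups had correlations of -0.07 to 0.06 in their deviations from the group means, against -0.15 to 0.14 for differently numbered ones. The labels do not say that the numbers pair mice, and with so few mice these correlations cannot decide it. The block gave 0 genes for later OCA mice, 74 for responders and 0 for non-responders, each set against vehicle, and called no member. It turned Saa4 in later OCA mice against vehicle to -0.019.

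Several members changed sign under an alternative, and none was called in a fit where its sign changed. For responders against non-responders, Hp (0.09) was -0.12 with library totals only and -0.17 by limma with a pseudocount of 0.1, and -0.19 to 0.30 with each biopsy left out. Hpx (0.04) was -0.17 with library totals only, -0.0087 by limma on quantile-normalized values, -0.17 by limma with a pseudocount of 0.1 and -0.18 with the Rn45s covariate, and -0.057 to 0.15 with each biopsy left out. Saa4 (0.70) was -0.16 to 1.08 with each biopsy left out. For later OCA mice against vehicle, Saa1 (0.90) was -0.43 in DESeq2, -2.69 with the Rn45s covariate and -0.43 to 1.71 with each biopsy left out. Saa2 (0.37) was -0.59 in DESeq2, -0.16 by limma on quantile-normalized values, -0.38 by limma with a pseudocount of 0.1, -1.81 with the Rn45s covariate and -0.61 to 0.95 with each biopsy left out. In this comparison DESeq2 replaced the responder 1 counts of Saa1 and Saa2, 24398 and 4615, by 2122 and 669 as outliers. Saa4 (0.08) was -0.19 with library totals only, -0.0089 by limma on quantile-normalized values and -0.29 by limma with a pseudocount of 0.1, -0.47 with the Rn45s covariate and -0.30 to 0.25 with each biopsy left out, and Mt1 (-0.09) was -0.30 to 0.46 with each biopsy left out.

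For responders against vehicle, Saa4 (0.43) was -0.18 by limma with a pseudocount of 0.1 and -0.44 to 0.84 with each biopsy left out. With the Rn45s covariate Saa1 was -1.68, Saa2 -1.19, Hp -0.48 and Mt1 -0.29, and with each biopsy left out Saa1 was -0.073 to 2.62 and Saa2 -0.42 to 1.72. For non-responders against vehicle, the Rn45s covariate gave 0.44 for Saa4 and -0.11 for Hp, and Saa1 was -0.97 to 0.14 with each biopsy left out. Over all alternatives, values of single members and medians of lists kept their direction and call in 919 cases, moved further in 65, were reversed in 41 and passed a threshold they had missed in 11.

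The number of member pairs that passed the adjustment was 1, and it was 4 for deviations from the group means and 0 to 1 with each biopsy left out, 0 without responder 1, non-responder 4 or vehicle 1. The log2 difference in Rn45s share between later OCA mice and vehicle was 1.36 to 1.81 with each biopsy left out, and without a vehicle biopsy the smallest exact permutation p is above 0.05. DESeq2 gave no adjusted p for Saa1 in the comparisons of responders with non-responders and with vehicle. For members with low counts such as Orm1 (193 to 569 counts) counting error adds to the spread between mice.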

Other observations

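The genes named here were chosen after their values were seen, and they carry no test. The receptor genes Lifr and Il1r1 had their highest levels in responder 1, the biopsy with the most Saa1, while the related Il6ra, Il6st and Il1rap were highest in non-responder 4, vehicle 3 and vehicle 1. Il1rap was lowest in responder 1, at 26.1 CPM. Lifr, the leukaemia inhibitory factor receptor, was 44.1 CPM there and 7.41 to 17.2 CPM in the other 9 biopsies. Il1r1, the type 1 interleukin-1 receptor, was 6.89 CPM in responder 1 and 0.617 to 2.31 CPM in the other 9. Slc39a14, a zinc importer of hepatocytes that interleukin-6 induces, was 497 CPM in responder 1 and 138 to 363 CPM in the others. Saa3, a serum amyloid A made mainly outside hepatocytes, was 7.28 CPM in responder 1, 6.14 CPM in non-responder 2 and 1.22 to 3.84 CPM in the other 8. Rbp4, the retinol carrier whose production falls in the acute phase, was 2811 CPM in responder 1 and 3797 to 5366 CPM in the others. Ahsg and Fetub, of the same list, were not low in responder 1, at 163 CPM and 16.3 CPM.

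Some glucocorticoid-responsive genes had their upper levels in the biopsies with the most metallothionein. Sgk1, a serum and glucocorticoid regulated kinase, was 15.5, 41.5 and 29.6 CPM in responders, 19.1, 19.8, 23.2 and 13.6 CPM in non-responders, and 57.8, 15.5 and 15.1 CPM in the vehicle group. Ddit4, a stress-induced inhibitor of mTORC1, was 1.14, 11.1 and 7.66 CPM in responders, 2.86, 2.45, 6.04 and 0.997 CPM in non-responders, and 10.7, 1.08 and 0.916 CPM in the vehicle group. For both genes vehicle 1, responder 2 and responder 3 were the highest biopsies, as for Mt1, while Saa1 was highest in responder 1. The list did not share this pattern as a whole. Of its 15 measured genes, responder 1 was the highest biopsy for 4, vehicle 1 for 4, responder 3 for 3 and responder 2 for 2.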
